A study of Mus musculus with 2 samples.

Results

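Chemokine ligands and chemokine receptors were examined in the epidermis of newborn mice by RNA-seq of poly(A)-selected RNA. A wild-type C57BL/6 library (WT) was set beside a library from Foxn1 L19M/L19M mutants on the same background (L19M). Members were every gene whose symbol starts with Ccl, Cxcl, Ccr, Cxcr or Ackr and a digit, with Cx3cl1, Cx3cr1, Xcl1 and Xcr1. The rule found 62 of the 23183 genes in the table, of which 39 encode ligands and 23 encode receptors. Foxn1 is a transcription factor that drives hair and keratinocyte differentiation and the thymic epithelium, and the study set out to compare keratinocytes with and without the L19M allele. The sources used here give no age in days, sex or number of pups, and both libraries come from neonatal epidermis rather than sorted cells. Each genotype had 1 library and no replicate, so every difference below is one between 2 libraries and carries no test.

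Chemokines are small secreted proteins that guide leukocytes along concentration gradients by binding G protein-coupled receptors, and they are classed as CC, CXC, CX3C or XC by the spacing of their first cysteines. In skin, keratinocytes make some of them constitutively, such as Cxcl14 and Ccl27a, and others only after injury or exposure to cytokines, such as the neutrophil attractants of the Cxcl1 group. Atypical receptors, named Ackr, bind chemokines and remove them without the usual G protein signal.

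Levels are given in FPKM, which is fragments scaled by transcript length and library total. The estimated depth was 14151680 fragments in WT and 19216970 in L19M, and fragments per gene were estimated from the same relation. Intervals are exact at 95% and cover counting error only, not the spread between animals or preparations. A gene counted as measured at a mean of at least 1 FPKM, and as higher or lower when at least 2-fold apart on the log2(FPKM + 1) scale. Differences of genes with low FPKM are understated on that scale. Keratinocyte markers were abundant in both libraries, from 55.5 FPKM for Trp63 to 18400 FPKM for Krtdap in WT. Fibroblast genes were present as well, with Col3a1 at 268 FPKM in WT and 278 in L19M and Vim at 258 and 423. A gene's presence here thus does not place it in keratinocytes. Foxn1 itself had 3.74 FPKM in WT against 5.44 in L19M, and an RNA level does not check which allele is present. Since the tissue was sequenced in bulk, fewer cells of a type and less RNA per cell cannot be told apart for any gene below.

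Of the 62 genes, 20 were measured, 30 were above 0 but below the floor, and 12 were listed at 0 in both libraries. The 12 were Ccl1, Ccl17, Ccl19, Ccl21b, Ccl21c, Ccl26, Ccl27b, Cxcl15, Ccr1l1, Ccr3, Cxcr1 and Cxcr5. Among the 20 measured genes, 1 was at least 2-fold higher in L19M (5%), against a background of 0.532% of 11841 measured genes. Another 2 were at least 2-fold lower (10%), against a background of 1.71%. The higher gene was Ccl2 and the lower genes were Ccl27a and Ccl6. The other 17 did not reach the rule. The median log2 ratio of the 20 was 0.19, with 13 above 0 and 7 below, beside a median of 0.0049 over all measured genes, of which 50.8% lay above 0. Measured genes are a selected set, since a low gene could enter it through its higher library alone. Ccl2, the only higher gene, entered that way, with 0.589 FPKM in WT and 2.54 in L19M.

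**Figure D1:**
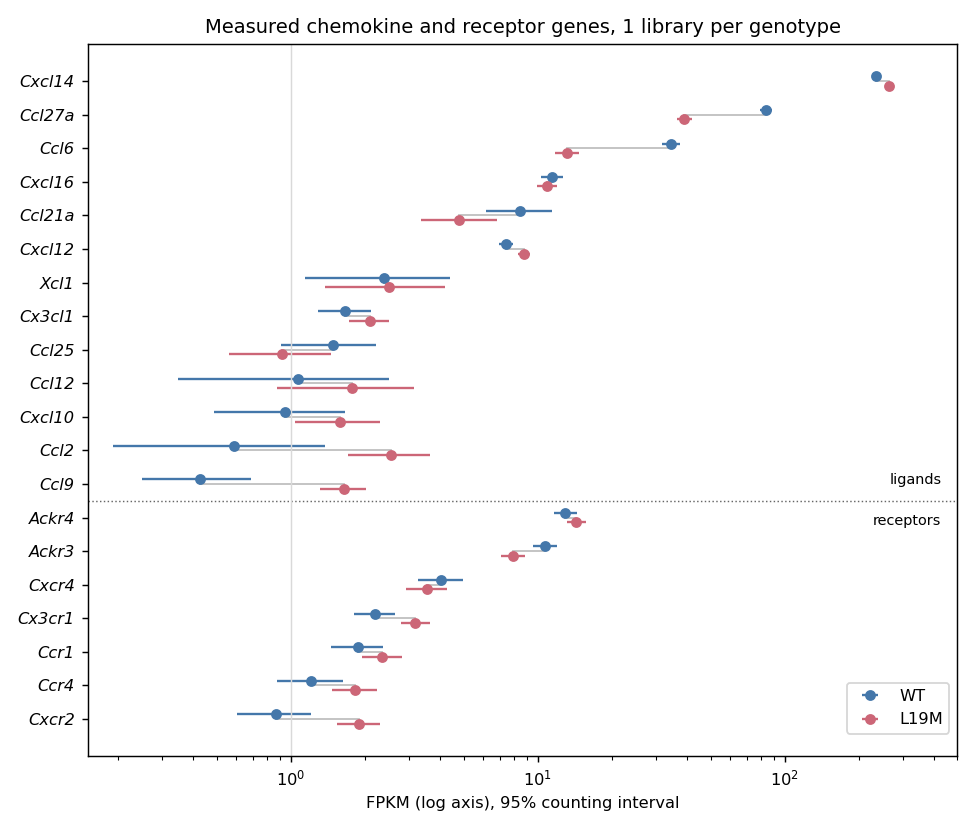
FPKM (log axis) of the 20 measured genes in the WT and L19M libraries, with the exact 95% counting interval of each value as a bar and ligands above the dotted line. Cxcl14 lies highest in both libraries, and Ccl27a and Ccl6 show the widest gaps to the left for L19M among the abundant ligands.

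The chemokine RNA of this epidermis was dominated by 3 ligands. Cxcl14, an epithelial chemokine whose receptor is not settled, was the most abundant, at 234 FPKM in WT against 263 in L19M. Its ratio of L19M over WT was 1.12 (interval 1.09 to 1.16), or 0.17 as log2. Ccl27a, the keratinocyte chemokine that attracts skin-homing T cells through Ccr10, had 83.7 FPKM in WT against 39.2 in L19M. Ccl27a was thus lower in L19M, with a ratio of 0.469, an interval of 0.429 to 0.512 and a log2 ratio of -1.07. Ccl6, a mouse CC chemokine of macrophages that signals through Ccr1, had 34.6 FPKM in WT against 13.1 in L19M, and a ratio of 0.380 (interval 0.330 to 0.436) or -1.33 as log2.

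These 3 genes held 89.6% of the summed FPKM of all ligands in WT and 87.8% in L19M. Within that sum the share of Cxcl14 alone was 59.5% in WT and 73.2% in L19M, and the level of Cxcl14 over that of Ccl27a was 2.80 in WT and 6.70 in L19M. Ccl27a ranked 991 among all genes by FPKM in WT and 1903 in L19M, while Cxcl14 ranked 380 and 310. The Ccl27a row (minus strand of chromosome 4, 41769470 to 41774134, mm10) overlaps the opposite-strand gene Il11ra1 by 4 bases, and Il11ra1 had 17.2 FPKM in WT against 16.1 in L19M.

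The duplicated chemokine genes of chromosome 4 cannot be read singly. Ccl27b, a near-copy of Ccl27a, and the Ccl21a copies Ccl21b and Ccl21c were listed at 0 in both libraries, and the rows of Ccl21b and Ccl21c span several copies of the locus. No source used here says how the authors divided fragments between such copies. Ccl21a, which lymphatic endothelium makes to draw Ccr7-bearing dendritic cells, had 8.43 FPKM in WT against 4.80 in L19M. Its ratio was 0.569 (interval 0.353 to 0.924), from 43 and 33 estimated fragments, and its log2 ratio was -0.70. Ccl19, the other Ccr7 ligand, was at 0 in both libraries, and Ccr7 had 1 estimated fragment in WT and 0 in L19M.

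Cxcl16 and Cxcl12, the other ligands above 5 FPKM in both libraries, were close to equal. Cxcl16, a membrane-bound ligand of Cxcr6, had 11.4 FPKM in WT against 10.9 in L19M, with a log2 ratio of -0.06 and a ratio interval of 0.828 to 1.10 that held 1. Cxcl12, the stromal ligand of Cxcr4, had 7.42 FPKM in WT against 8.78 in L19M, with a log2 ratio of 0.22 and a narrow interval of 1.09 to 1.29 from 866 and 1391 fragments. Cx3cl1, the membrane-tethered ligand of Cx3cr1, had 1.66 and 2.08 FPKM in WT and L19M, and its interval of 0.921 to 1.71 held 1 (log2 ratio 0.21). Xcl1, which epidermal T cells make for Xcr1-bearing dendritic cells, had 2.39 and 2.50 FPKM (log2 ratio 0.05, interval 0.433 to 2.64).

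A different pattern was seen in ligands of the Cxcl1 group, which carry a Glu-Leu-Arg (ELR) motif before the CXC cysteines and draw neutrophils through Cxcr2. All of them lay below the floor, and 4 of the 5 had fragments in L19M while 1 had any in WT. The group held 1 estimated fragment in WT and 37 in L19M. Scaled to depth, L19M over WT came to 27.2 (interval 4.60 to 1105). Singly, only Cxcl2 and Cxcl5 had a ratio interval above 1. The genes of the group lie together on chromosome 5, and upstream sequences are shown because 4 of these genes had more estimated fragments in L19M. The 120 bases before the annotated start of 3 of them are given 5′ to 3′ on the plus strand of GRCm38.p6 (the same assembly as mm10), from RefSeq. Capitals mark GGGAATTTCCC, the longest string that all 3 windows share, which holds a sequence of the kind bound by NF-kappaB, a family of factors that inflammatory signals switch on.
Cxcl1, chr5:90891125-90891244: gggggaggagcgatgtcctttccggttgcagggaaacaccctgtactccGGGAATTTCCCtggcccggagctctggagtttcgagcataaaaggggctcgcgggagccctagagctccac
Cxcl2, chr5:90903779-90903898: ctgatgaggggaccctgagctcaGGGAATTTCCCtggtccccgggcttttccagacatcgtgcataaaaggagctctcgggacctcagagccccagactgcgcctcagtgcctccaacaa
Cxcl3, chr5:90785981-90786100: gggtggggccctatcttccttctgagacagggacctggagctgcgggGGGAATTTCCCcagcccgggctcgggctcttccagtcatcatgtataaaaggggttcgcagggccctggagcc

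The capitals begin 71 bases before the start in Cxcl1, 97 bases before it in Cxcl2 and 73 bases before it in Cxcl3. On either strand this string of 11 bases occurred within 250 bases upstream of 14 of 27025 genes with a RefSeq window (0.0518%). Among members, 46 of 62 had such a window, and the match was found in these 3 alone (6.52%), from which the string was taken. Cxcl5 and Ccl2 were among the members without a window, so they were not searched. A match describes these letters and does not show binding.

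Cxcl2 was the most abundant of the group, at 0.0806 FPKM in WT against 1.07 in L19M, from 1 and 18 estimated fragments. Its FPKM ratio was 13.3 (interval 2.10 to 555). Cxcl5 had 0 fragments in WT and 8 in L19M (0.288 FPKM). A count of 0, taken as up to 3 fragments, allows 0.146 FPKM in WT, and the interval of the Cxcl5 ratio started at 1.26. Cxcl1 was at 0 in WT and had 6 fragments in L19M (0.423 FPKM), and Cxcl3 was at 0 in WT and had 5 (0.322 FPKM). The WT limits that a count of 0 allows were 0.285 FPKM for Cxcl1 and 0.261 FPKM for Cxcl3. The ratio intervals of Cxcl1 and Cxcl3 started at 0.873 and 0.679 and so held 1. Cxcl15, chiefly a lung chemokine, was at 0 in both libraries.

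Cxcr2, the receptor through which these ligands act on neutrophils, was also higher in L19M by its counting interval. It had 0.871 FPKM in WT against 1.89 in L19M, from 35 and 103 estimated fragments. The ratio was 2.17 (interval 1.47 to 3.28), and with the pseudocount the log2 ratio of 0.63 stayed under 2-fold. Cxcr1 was at 0 in both libraries. Of the 13 neutrophil markers in the table, 4 were measured, with Cxcr2 itself among them. Their median log2 ratio was 1.58, with Cxcr2 at 0.63 and Il1r2 at -0.71, and 2 were at least 2-fold higher in L19M. The 2 were the alarmin genes S100a8 and S100a9, which keratinocytes also express, at 25.1 and 23.2 FPKM in WT and 151 and 154 FPKM in L19M. The summed level of all 13 was 73.8 FPKM in WT against 323 in L19M, and the granule genes Elane, Mpo and Camp were at 0 in both. Without S100a8 and S100a9 the sum was 25.5 FPKM in WT against 18.7 in L19M, most of it Il1r2, a decoy receptor for interleukin 1, at 23.6 and 14 FPKM. With Il1r2 and Cxcr2 also left out, a choice made after their values were seen, the other 9 markers summed to 1.01 FPKM in WT against 2.84 in L19M, from 27 and 101 fragments. Mmp8, a neutrophil collagenase, had 2 and 30 fragments, and Csf3r, the receptor for granulocyte colony-stimulating factor, 12 and 38. Trem1, a receptor of neutrophils and monocytes, had 3 and 19, while Ltf, the granule gene for lactoferrin, went the other way with 6 and 0 (ratio interval 0 to 0.627). The part of neutrophil number in the values of Cxcr2 and of its ligands was not tested.

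**Figure D2:**
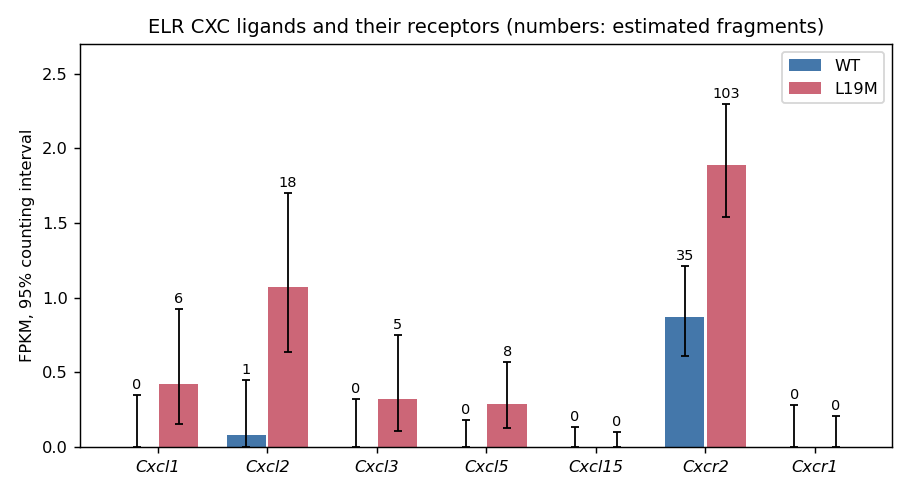
FPKM of the ELR CXC ligands and of Cxcr2 and Cxcr1 in each library, with exact 95% counting intervals as bars and the estimated fragments printed above each value. Cxcl1, Cxcl3 and Cxcl5 are at 0 in WT, and Cxcl2 has 1 fragment in WT against 18 in L19M.

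Ccl2 and Ccl9, inflammatory CC ligands that draw monocytes and other myeloid cells, were higher in L19M. Ccl2, the main ligand of Ccr2, had 0.589 FPKM in WT against 2.54 in L19M, from 5 and 29 estimated fragments. Its ratio was 4.31 (interval 1.65 to 14.3), and its log2 ratio of 1.15 passed the 2-fold rule. Ccl9, a mouse ligand of Ccr1, had 0.429 FPKM in WT against 1.64 in L19M, from 17 and 88 fragments. Its ratio was 3.82 (interval 2.25 to 6.85), and with the pseudocount it stayed under the rule at 0.88.

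Ccl9 lies next to Ccl6 on the minus strand of chromosome 11, and the neighbours differed in opposite directions. Ccl6 (83587886 to 83593087) was 80.7 times as abundant as Ccl9 (83572917 to 83578636) in WT and 8.02 times as abundant in L19M. Their shared receptor Ccr1 had 1.86 FPKM in WT against 2.34 in L19M, with a log2 ratio of 0.23 and a ratio interval of 0.930 to 1.72 that held 1. In the other chromosome 11 cluster, Ccl2 was followed by Ccl7 and Ccl12, further ligands of Ccr2. Ccl7 had 9 estimated fragments in each library, and Ccl12 had 5 in WT (1.07 FPKM) and 11 in L19M (1.76 FPKM), a log2 ratio of 0.41. The interval of Ccl7 ran from 0.261 to 2.11 and that of Ccl12 from 0.527 to 6.04. Ccl8, another ligand of this cluster, had 1 fragment in WT and 4 in L19M. Summed over Ccl2, Ccl7, Ccl8 and Ccl12 there were 20 fragments in WT and 53 in L19M, or 1.95 after scaling (interval 1.15 to 3.45). Ccl2 alone held 5 and 29 of these, so the sum adds little to the Ccl2 value. The sum was not among the groups set beforehand, and it left out Ccl11 of the same cluster. Ccr2 had 28 and 50 fragments, a ratio of 1.32 (interval 0.813 to 2.17). Ccl11, an eosinophil attractant, had 5 and 6 fragments, and its receptor Ccr3 was at 0. Ccl24, another eosinophil attractant, had 1 fragment in WT and 0 in L19M. Ccl3, Ccl4 and Ccl5, attractants of T cells and macrophages, had at most 3 fragments in either library.

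**Figure D3:**
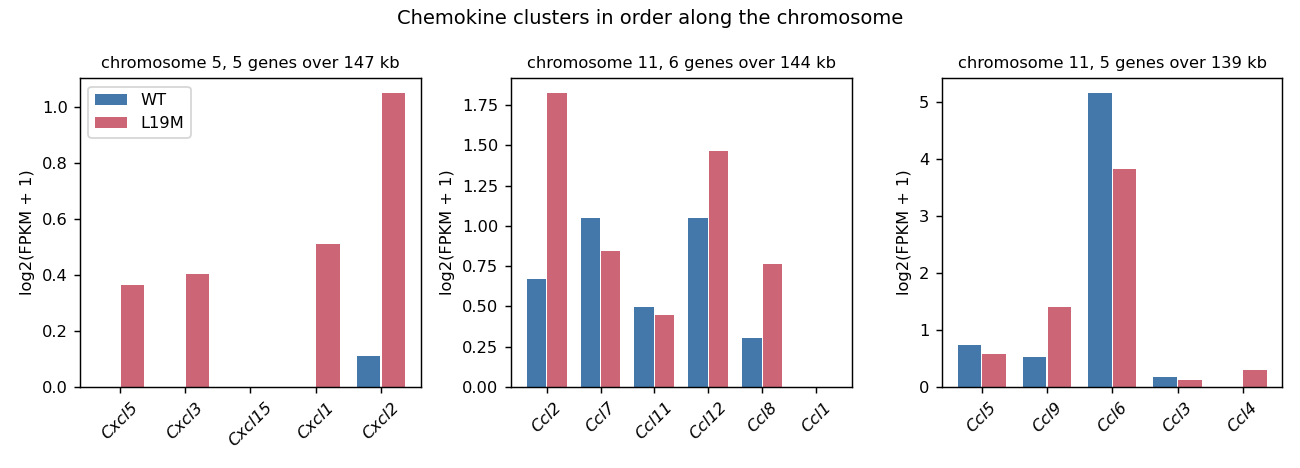
log2(FPKM + 1) of members in their order along 3 chromosomal clusters, in the WT and L19M libraries, with a separate vertical scale in each panel. In the last panel Ccl9 is higher and its neighbour Ccl6 lower in L19M, and in the first panel only Cxcl2 has a visible WT bar.

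Marker lists of the cells that make or answer these ligands lay on both sides of 0. In the monocyte and macrophage list none of 11 measured genes passed 2-fold, with 8 above 0 and 3 below and a median log2 ratio of 0.20. The summed level of its 12 genes was 121 FPKM in WT against 141 in L19M, with none at 0. Of 6 measured Langerhans cell and dendritic cell markers, 4 passed 2-fold, all lower in L19M, and the median was -1.72. The 4 were H2-Aa, H2-Ab1, H2-Eb1 and Cd74, which encode class II antigen presentation proteins and their invariant chain. The 11 genes of that list summed to 281 FPKM in WT against 112 in L19M, and Cd207, which defines Langerhans cells, had 5 fragments in WT and 1 in L19M, with a ratio interval of 0.00313 to 1.32 that held 1. Zbtb46, a dendritic cell transcription factor below the floor, was in the other direction with 4 and 28 fragments (interval 1.81 to 20.3), and Flt3, a growth factor receptor of dendritic cells, had 2 and 11 (interval 0.885 to 37.7). The endothelial list had no call among 7, all above 0 with a median of 0.40, and sums of 15.2 and 23.9 FPKM. The part of any of these cell types in the values of Ccl6, Ccl9, Ccl2 or Ccl21a was not tested.

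Apart from Ccl27a and Cxcl16 above, ligands and receptors of T cells were low, and several lay at the limit of this depth. Cxcr3, the receptor of activated T cells for Cxcl9, Cxcl10 and Cxcl11, had 0 fragments in WT and 10 in L19M (0.372 FPKM). A count of 0 allows 0.151 FPKM in WT, and the interval of the Cxcr3 ratio started at 1.66. Its ligands had no common direction. Cxcl10 had 0.949 FPKM in WT against 1.58 in L19M from 12 and 27 fragments, with a ratio of 1.67 (interval 0.816 to 3.61) and a log2 ratio of 0.41, and its row lies within the opposite-strand gene Art3. Cxcl9 had 14 fragments in WT and 10 in L19M, and Cxcl11 had 0 and 1.

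Ccr4, a skin-homing receptor, had 1.20 FPKM in WT against 1.82 in L19M, with a ratio of 1.51 (interval 1.04 to 2.22) and a log2 ratio of 0.35. Its ligand Ccl22, which dendritic cells make, had 1.06 and 0.585 FPKM, with an interval of 0.283 to 1.06, and its other ligand Ccl17 was at 0 in both. Ccr10, the receptor of Ccl27a, had 3 fragments in WT beside 12 in L19M, with a ratio of 2.96 and an interval of 0.798 to 16.3 that held 1. Ccl28, the other Ccr10 ligand, had 14 and 8 fragments. Ccl20, which keratinocytes make for Ccr6-bearing cells, had 5 fragments in each library, and Ccr6 had 0 and 6. Cxcr6, whose row overlaps the opposite-strand gene Fyco1, had 10 and 11 fragments, Ccr8 5 and 3, and Xcr1 2 and 1. The Ccr8 ligand Ccl1 was at 0 in both libraries. Ccl25, a thymic and gut chemokine, had 1.48 FPKM in WT against 0.917 in L19M (log2 ratio -0.37, interval 0.327 to 1.24). Its receptor Ccr9 had 25 and 42 fragments, with an interval of 0.738 to 2.12. Cxcl13, a B cell attractant, had 0 and 7 fragments, while its receptor Cxcr5 was at 0. Cxcl17, a mucosal chemokine, had 1 fragment in WT and 0 in L19M.

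Of 9 measured T cell markers, 1 passed 2-fold and was lower in L19M (Cd3g, 13.9 and 4.81 FPKM), 7 lay below 0, and the median was -0.46. The sum over the 11 T cell markers in the table was 50.4 FPKM in WT against 40.4 in L19M. Thy1, the largest part of that sum, went the other way with 18.3 FPKM in WT and 24.0 in L19M. Lck was also above 0, at 1.48 and 2.04 FPKM. Cxcr3 and Ccr4 had ratio intervals above 1, while those of Ccr10, Cxcr6 and Ccr8 held 1. The part of T cell number in these values was not tested.

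Among the receptors the atypical scavengers were the most abundant. Ackr4, which removes Ccl19, Ccl21 and Ccl25, had 12.9 FPKM in WT against 14.3 in L19M, with a log2 ratio of 0.14 and a ratio interval of 0.967 to 1.27. Its row lies inside the opposite-strand gene Acad11, at 11.3 and 12.8 FPKM, and no source used here says whether fragments were counted by strand. Ackr3, which removes Cxcl12, had 10.7 FPKM in WT against 7.96 in L19M. The ratio of Ackr3 was 0.744 (interval 0.634 to 0.870) and its log2 ratio -0.38, while Cxcr4, the signalling receptor for the same ligand, had 4.04 and 3.54 FPKM (log2 ratio -0.15) and an interval of 0.657 to 1.17. Together Ackr3 and Ackr4 held 64.6% of the summed receptor FPKM in WT and 57.1% in L19M. Ackr2, which clears inflammatory CC chemokines, had 4 fragments in WT beside 19 in L19M, with a ratio of 3.32 (interval 1.16 to 14.2). Ackr1, a chemokine-binding protein of venules and red cells, had 2 and 6. Cx3cr1, a receptor of macrophages and other myeloid cells, had 2.19 FPKM in WT against 3.19 in L19M, with a log2 ratio of 0.39 and an interval of 1.15 to 1.85.

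Over all members, 38 had at least 7 estimated fragments, the fewest that let a ratio interval lie wholly above or below 1 in either direction. Of these, 12 had an interval above 1 (31.6%) and 4 below 1 (10.5%), against 20.1% and 21.2% of 15118 genes. With a ratio of at least 2-fold as well, which a gene with 0 fragments in WT passes by its form, there were 8 members higher (21.1%, background 2.34%) and 2 lower (5.26%, background 3.70%). The 8 were Cxcl2, Cxcl5, Cxcl13, Ccl2, Ccl9, Cxcr2, Cxcr3 and Ackr2, and the 2 were Ccl27a and Ccl6. This rule was added after the data were seen, and its backgrounds were not matched on level. Of the 38 members 18 lay below the floor, against 3318 of the 15118 genes. Cxcl2, Cxcl5, Cxcl13, Cxcr3 and Ackr2 were among those 18. With few fragments an interval leaves out 1 only at a large ratio, so the 2.34% is a low yardstick for such genes. Of the 18 members tested below the floor, 5 had an interval above 1 and none below, against 9.34% and 9.73% of 3318 genes below it. Of the 50 members above 0 in either library, 8 were at 0 in WT alone (16%, background 4.78%) and 3 were at 0 in L19M alone (6.00%, background 3.69%). These backgrounds were not matched on level. Of the 50 members 30 lay below the floor, while 11841 of the 17309 genes above 0 in either library were measured. A 0 is mostly seen in low genes, so part of the gap to the background goes with level. The L19M library was the deeper, so a gene of equal level was more likely to be at 0 in WT.

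**Figure D4:**
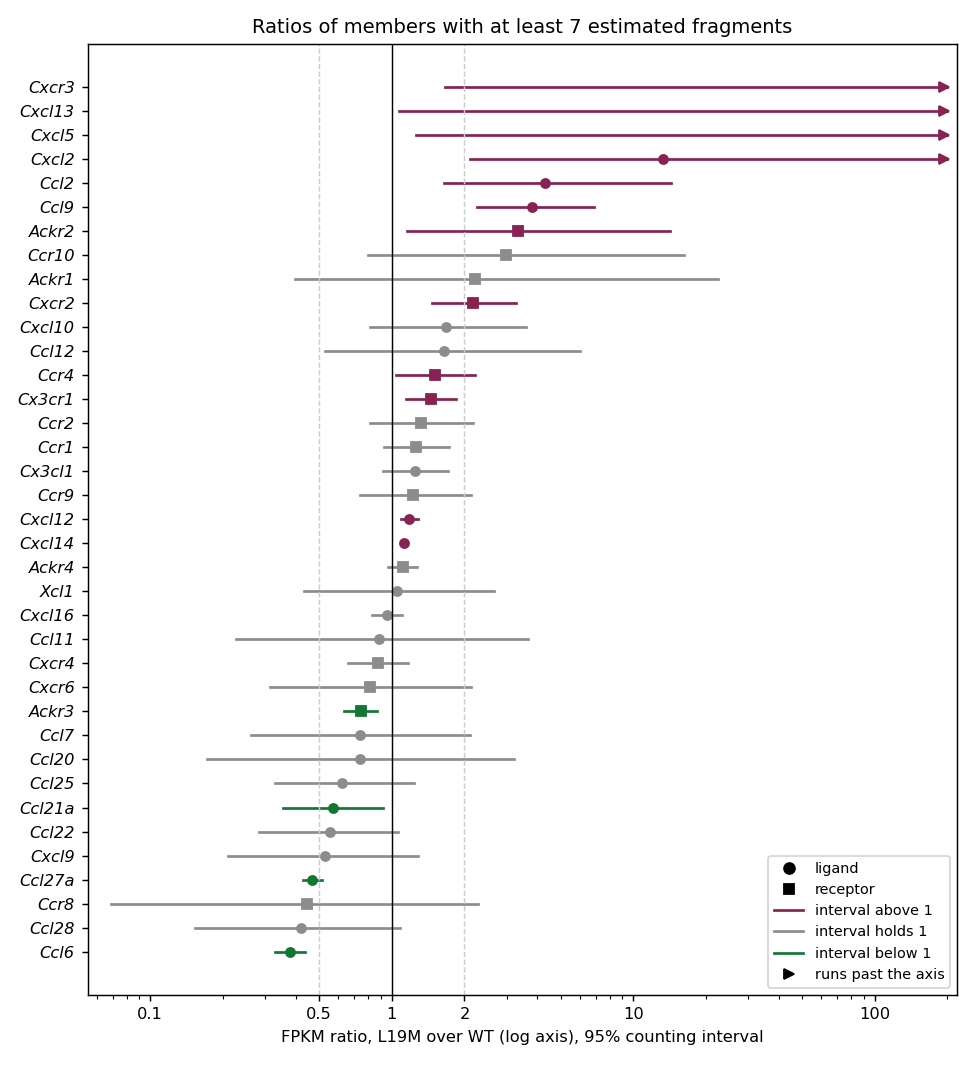
FPKM ratio of L19M over WT (log axis) with its exact 95% counting interval for 37 of the 38 members with at least 7 estimated fragments, circles for ligands and squares for receptors. A row without a symbol has 0 fragments in WT, and dashed lines mark 2-fold. The 12 intervals above 1 belong to rarer genes at the top and to narrow intervals near 1 such as Cxcl14 and Cxcl12, and Ccl6 and Ccl27a are lowest among the 4 below 1.

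In the pathway lists that lead to and from chemokine RNA, no measured gene reached the 2-fold rule. For NF-kappaB factors and feedback inhibitors that was none of 17, with 15 above 0, 2 below and a median log2 ratio of 0.21. The largest were Bcl3, a nuclear coactivator of NF-kappaB, at 0.99 (1.60 FPKM in WT, 4.16 FPKM in L19M) and Tnfaip3, an inhibitor that NF-kappaB itself induces, at 0.63 (0.644 and 1.54 FPKM). Nfkbia, another such inhibitor, had 70.1 and 102 FPKM, and Nfkb2 had 5.69 and 8.54 FPKM.

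None of 20 measured cytokines and cytokine receptors that act on keratinocyte chemokines passed 2-fold, with 12 above 0, 8 below and a median of 0.12. Il18 had 401 FPKM in WT against 208 in L19M, a log2 ratio of -0.94, and Il1a had 18.5 and 10.6 FPKM, a log2 ratio of -0.75. Ifngr1, a chain of the interferon gamma receptor, stood at 0.54, and the interleukin 36 gamma gene, listed as Il1f9, at 0.50 (57.8 and 82.4 FPKM). The genes of interleukin 17A, interleukin 17F, interleukin 22, interleukin 6 and interferon gamma were listed at 0 in both libraries, and Tnf had 4 fragments in WT and 6 in L19M.

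Downstream of the receptors, none of 16 measured signalling genes passed 2-fold, with a median of 0.01. Rgs1, which damps chemokine receptor signals in lymphocytes, was furthest from 0 at -0.72 (1.63 and 0.604 FPKM). Arrb2, an arrestin that internalises receptors, and Rac1, a GTPase of cell movement, both stood at 0.35, and Plcb3 at 0.33. Of 15 measured proteases that trim chemokines and carriers of heparan sulphate, which holds chemokines at the cell surface, none passed, and the median was 0.06. Dpp4, which trims the ends of several chemokines, had 10.3 FPKM in WT against 5.85 in L19M, a log2 ratio of -0.72. Gpc1, a heparan sulphate carrier, stood at 0.33, and Sdc1, another, at -0.25.

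**Figure D5:**
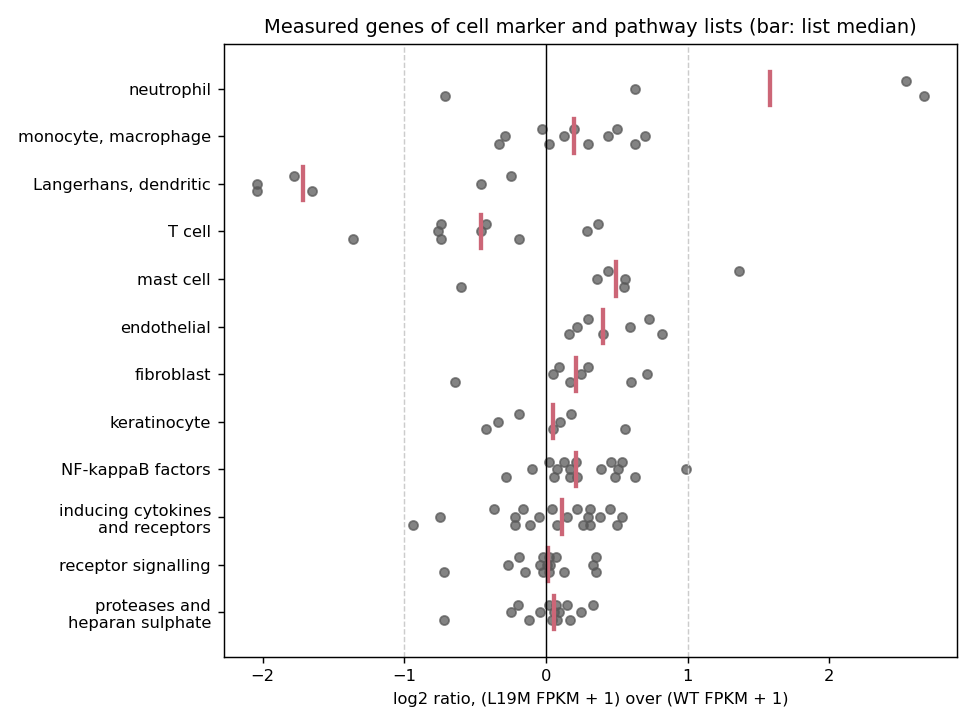
log2 ratio of L19M over WT, with 1 FPKM added, for each measured gene of the cell marker and pathway lists, with each list's median as a bar and dashed lines at 2-fold. The Langerhans and dendritic list lies to the left with a median of -1.72, and the NF-kappaB list to the right of 0 with a median of 0.21.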

How the data were processed

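RNA was extracted from neonatal epidermis with TRIzol, poly(A)-selected and made into libraries with a directional kit, per the labels' protocols. The authors deposited FPKM per gene under a raw-data heading and quantile-normalized log2 values, per the file headers and information sheet, with a fold ratio of L19M over WT made from those by the authors. The transcript lengths used were from the same deposited table. Per the submitters' processing notes the tools included Cufflinks, edgeR and R 3.5.1, with no role given. No source used here names an aligner. The information sheet gives the build as mm10 and the processing notes list GRCm39. Of 22901 genes matched to RefSeq of GRCm38 by Entrez ID, 95.4% started within 5000 bases of its gene start, and coordinates are given as mm10, counted from 1.

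Values were analysed as deposited with Python 3.11.15, numpy 2.4.6, pandas 2.3.3 and scipy 1.17.1. The log2 ratio was taken with a pseudocount of 1. Low FPKM values of transcripts of at least 1000 bases stepped as whole fragments, worth 1 fragment over the library total and over the length less 206 bases in WT or 211 in L19M. With that fit 84.2% and 83.6% of values up to 20 fragments were within 0.1 of whole, and 45 of 51 such member values. Fragments were estimated for transcripts of at least 300 bases and rounded. Intervals are exact Poisson for a value and Clopper-Pearson for a ratio. PCR copies are not independent molecules, so these cover counting error only. The procedure was tested on simulated data.

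Every measured member is named, and of each list at most the 4 measured genes with the largest absolute log2 ratio, with further genes chosen after their values were seen. Members and lists were chosen with earlier results of these data known. Listed symbols without a row were looked up by Entrez ID, and Trdc, Flg, Ly6g and Il36rn were not analysed here. Values of 1 member are not reported here, though counts include it. Alternatives were other pseudocounts, floors and scalings.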

Additional observations from a re-analysis of the deposited data

How the results depend on the processing

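Under 7 other settings (pseudocounts of 0.1 and 0.5, a floor of 0.5 FPKM or none, median centring, upper quartile scaling, and the authors' normalized log2 values), Ccl27a and Ccl6 were lower and Ccl2 was higher each time. A lower pseudocount or floor could not remove any of these calls. The other settings moved the log2 ratios little. With upper quartile scaling Ccl27a went from -1.07 to -1.02, Ccl6 from -1.33 to -1.28 and Ccl2 from 1.15 to 1.18. These calls were thus nearly bound to stay, and their staying is a weak check. The count of higher chemokine and receptor genes went from 1 to 2 with a pseudocount of 0.5, which added Ccl9, and to 3 with a pseudocount of 0.1, which added Ccl9 and Cxcr2. With the counting interval and 2-fold in place of the pseudocount and floor, a rule chosen after seeing the data, it was 8, and the all-gene counts were 354 higher and 559 lower in place of 63 and 203. A pseudocount of 0.1 gave 120 higher genes. The median log2 ratio of chemokine and receptor genes ran from 0.12 with no floor to 0.23 with upper quartile scaling. No measured member changed sign in 100 recomputed log2 ratios, though those with another pseudocount could not have. No paired analysis was possible because each genotype has 1 library, and leaving out a library leaves no comparison. Members with under 7 fragments cannot show a difference in both directions at this depth.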

Other observations

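Related genes outside the symbol rule lie beside the members. Ppbp, the platelet ELR chemokine also called Cxcl7, had 0 fragments in WT and 24 in L19M (1.44 FPKM), and added to the 5 ELR members it gave 1 fragment in WT and 61 in L19M. Pf4, the other platelet CXC chemokine, had 15 FPKM in WT against 23.5 in L19M, a ratio of 1.56 (interval 1.20 to 2.07). Gpr182, an atypical chemokine receptor of endothelium, had 6 and 26 fragments, a ratio of 3.20 (interval 1.29 to 9.51). Rarres2, which encodes the leukocyte attractant chemerin, had 12.7 FPKM in WT against 7.65 in L19M, while its receptor Cmklr1 had 21 and 38 fragments. Mif, a cytokine that also binds Cxcr2 and Cxcr4, was abundant and near equal at 465 and 486 FPKM, and Cd74, its receptor and the class II invariant chain, had 86.7 and 26.8 FPKM. Of the 5 measured genes of this list, 1 was at least 2-fold lower and none higher.

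In the mast cell list 5 of 6 measured genes lay above 0 and Hdc, the histamine-forming enzyme, was at least 2-fold higher, with sums of 106 FPKM in WT against 136 in L19M over its 8 genes. In the fibroblast list none of 8 passed 2-fold and the median was 0.21, with 7 above 0 and 1 below. Vim had 258 FPKM in WT against 423 in L19M, and Pdgfrb, a receptor of pericytes and fibroblasts, had 1.02 and 2.06. Lum went the other way at 46.7 and 29.6 FPKM, and Col1a1 had 158 and 177. Among proteases below the floor, Mmp3 had 3 fragments in WT and 25 in L19M, and Mmp9 had 2 and 18, while Ctsg had 9 and 4 (ratio 0.329, interval 0.0741 to 1.18), Mmp12 had 21 and 24 (ratio 0.843, interval 0.450 to 1.59) and Mmp1a had 0 and 1.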
